A study of Mus musculus with 6 samples.

Results

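Imprinted genes were described in RNA sequencing of mGB2, a mouse glioblastoma cell line whose labels give its cell type as glioblastoma stem cell. The 38 genes are a chosen list of mouse genes known from the literature to be expressed mainly from the paternal or the maternal allele, in at least some tissues, and they were found by symbol among the 49585 genes of the deposited tables. All 38 symbols had exactly 1 row. The list was not chosen by the values of these libraries, but it was drawn up with other results of the same data known.

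The samples were 3 untreated Bcat1-KO libraries and 3 untreated Control libraries, the controls being called NT in the design text. Bcat1 encodes the cytosolic branched-chain aminotransferase, which moves the amino group of leucine, isoleucine and valine to 2-oxoglutarate. Both genotypes had been cultured to confluency on a matrix-coated surface in a stem cell medium that contains EGF and FGF, and their RNA went into stranded poly(A) libraries. How the knockout was made, whether it is a single clone and whether the replicates are separate cultures are not stated in the labels, so p-values measure the spread between these libraries, which may be technical.

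At an imprinted locus the maternal and the paternal copy carry different DNA methylation at an imprinting control region, laid down in the germ line and kept through cell division by DNMT1, UHRF1 and KRAB zinc finger proteins such as ZFP57. That mark sets which copy is transcribed, often through a long noncoding RNA or a CTCF boundary, and neighbouring genes of a cluster can be expressed from opposite parental alleles. Many paternally expressed genes promote growth and many maternally expressed genes restrain it. The counts here add up both alleles, so parental origin below is background from the literature, not a measurement, and no value shows whether imprinting itself was kept.

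Counts on the gene's own strand totalled 35608024, 37800648 and 36414678 in Bcat1-KO and 31606648, 33550412 and 29543157 in Control. Bcat1 itself had 155, 176 and 173 CPM (counts scaled to library size, here by TMM) in Bcat1-KO, against 214, 223 and 232 CPM in Control, which on the log2 scale is a change of -0.41 (SE 0.07, adjusted p = 3.54e-04 from the quasi-likelihood test of edgeR after Benjamini-Hochberg correction). Its RNA was lower in every Bcat1-KO library but still present. Bcat1-KO replicate 1 differed more from the other Bcat1-KO libraries (chi-square per gene of 31.1 and 32.5) than these did from each other (12.4), and Control replicate 1 likewise stood apart from the other Control libraries (12.5 and 11.7, against 3.91 between those). All 10 glioblastoma stem cell markers examined were detected in Bcat1-KO and all except Prom1 in Control. They summed to 1770 to 2020 CPM in Bcat1-KO and 1062 to 1117 CPM in Control. Of the 10, 6 were higher in the knockout, among them Sox2 and Olig2, beside 32.0% of all tested genes. Prom1, also among the 6, passed the expression filter only through Bcat1-KO, so its direction was set by the filter. Nes, Msi1, Egfr and Pdgfra were not called. The 9 fibroblast and mural cell markers summed to 15.6 to 17.6 CPM in Bcat1-KO and 84.7 to 90.5 CPM in Control. All 5 of them that were tested were lower in the knockout, beside 30.3% of all tested genes. Pdgfrb, Acta2 and Myh11 passed the filter only through Control, so the filter favoured that direction. Col1a2, Dcn, Lum and Rgs5 were not tested and averaged at most 0.404 CPM in either group. Of these, Dcn went the other way, with 17, 18 and 10 counts in Bcat1-KO and 3, 2 and 2 counts in Control. The groups overlapped for Col1a2, Lum and Rgs5. The 13 neuron markers summed to 420 to 465 CPM in Bcat1-KO and 219 to 236 CPM in Control. Map2 held most of both sums, at 391 CPM in Bcat1-KO and 168 CPM in Control. Of the markers, 5 were higher and 2 lower (Rbfox3 and Elavl3), beside 32.0% and 30.3% of all tested genes. Gad1 passed the filter only through Bcat1-KO and Rbfox3 only through Control. Stmn2, Nefl and Nefm were at 0 counts in all libraries. Endothelial markers (0.831 to 1.33 CPM in Bcat1-KO, 1.17 to 1.30 CPM in Control) and immune markers (3.13 to 4.16 CPM in Bcat1-KO, 2.68 to 4.74 CPM in Control) were low throughout. The part of these marker differences in the results below was not tested, and in bulk RNA fewer cells of a type and less RNA per cell cannot be told apart.

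Of the 38 imprinted genes, 20 passed the expression filter and 18 did not. Among the 20 tested, 10 were higher in Bcat1-KO (Peg3, Peg10, Sgce, Mest, Inpp5f, Gnas, Airn, Blcap, Trappc9 and Ube3a), 1 was lower (Nap1l5) and 9 did not pass the adjusted p threshold of 0.05. Over all 14020 genes tested, 62.3% passed, 32.0% as higher and 30.3% as lower. Without Bcat1-KO replicate 1, 12 imprinted genes were called higher and 1 lower, beside 65.6% of all genes tested in that fit. The median log2 fold change was 0.25 over the 20 imprinted genes and 0.01 over all tested genes. Peg3 had no count in Control and passed the filter only through Bcat1-KO, so its direction was set by the filter; without it 9 of 19 tested imprinted genes were higher, 1 was lower and the median was 0.22. The share of imprinted genes called, 55% or 52.6% without Peg3, was below that of all genes tested. The groups did not overlap for 10 imprinted genes that were higher in the knockout and 2 that were lower, beside 67.7% of all tested genes in either direction. At least 2-fold changes were found for 3 imprinted genes (Peg3, Peg10 and Sgce), all higher, where 9.76% of all tested genes were higher and 9.43% lower by that much. Together the 38 genes took 0.387% to 0.435% of the counts in Bcat1-KO libraries and 0.260% to 0.268% in Control libraries, without overlap. Mest, Gnas and Peg10 held 1229 of the 1355 CPM by which the summed mean level was higher in Bcat1-KO, or 90.8%.

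**Figure D1:**
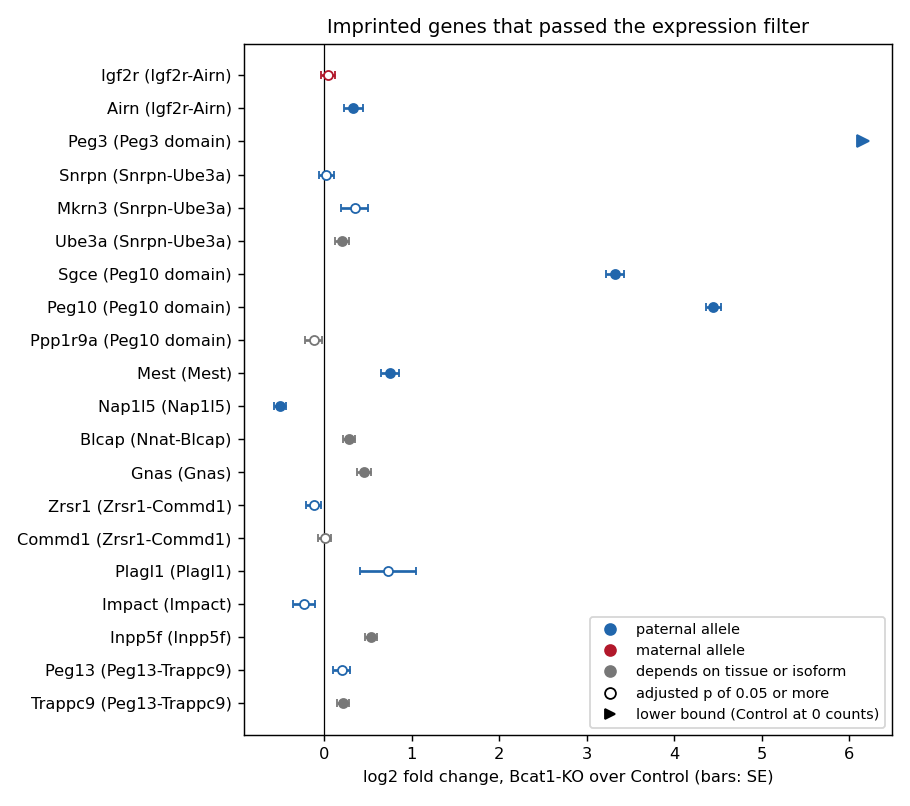
Log2 fold change (Bcat1-KO over Control, horizontal axis) of the 20 imprinted genes that passed the expression filter, with their SE, coloured by the parental allele known from the literature. Peg10 (4.45) and Sgce (3.32) stand far to the right, Peg3 is drawn as a lower bound, Nap1l5 (-0.50) is the only filled point left of 0, and the others lie between -0.23 and 0.75.

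Read by parental allele, the 21 genes with paternal expression included 12 that were tested. Of these, 5 were higher (Peg3, Peg10, Sgce, Mest and Airn), 1 was lower (Nap1l5), and their median log2 fold change was 0.34. That is 50% called, or 45.5% without Peg3, beside 62.3% over all tested genes. Of the 9 genes with maternal expression only Igf2r was tested, and it did not pass the threshold. The 8 genes whose imprinting depends on tissue or isoform included 7 that were tested, of which 5 were higher and 0 lower, with a median of 0.22. Over all tested genes 32.0% were higher and 30.3% lower. With the median of the 51 nearest tested genes taken off, Gnas was at 0.01 and Ube3a at 0.04. The Ube3a and Trappc9 calls were lost in several fits that left out 1 library, as given below. With 8 of the 9 maternally expressed genes below the filter, the paternal and maternal groups were not compared.

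Compared per transcript length, the imprinted genes spanned a wide range of levels. Mest ranked highest of the 38 in both groups, at 997 ± 126 TPM (the authors' values scaled for transcript length and library size) in Bcat1-KO and 571 ± 18.3 TPM in Control (SD, n = 3 each). Gnas came next in both, at 436 ± 19.8 TPM in Bcat1-KO and 307 ± 9.54 TPM in Control. Peg10 was at rank 3 in Bcat1-KO with 174 ± 11.3 TPM, against rank 16 in Control with 7.69 ± 0.575 TPM. Igf2r, Blcap, Nap1l5, Trappc9, Ube3a and Snrpn followed at mean levels of 35.6 to 71.0 TPM in Bcat1-KO and 33.7 to 67.6 TPM in Control, in that order in Bcat1-KO. In Bcat1-KO the libraries of Trappc9 overlapped with those of Nap1l5 and of Ube3a, and in Control those of Nap1l5 overlapped with those of Igf2r and those of Ube3a with those of Snrpn, so these neighbours do not differ beyond their spread. From Peg3 downward, 20 genes were below 1 TPM in every library of both groups.

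**Figure D2:**
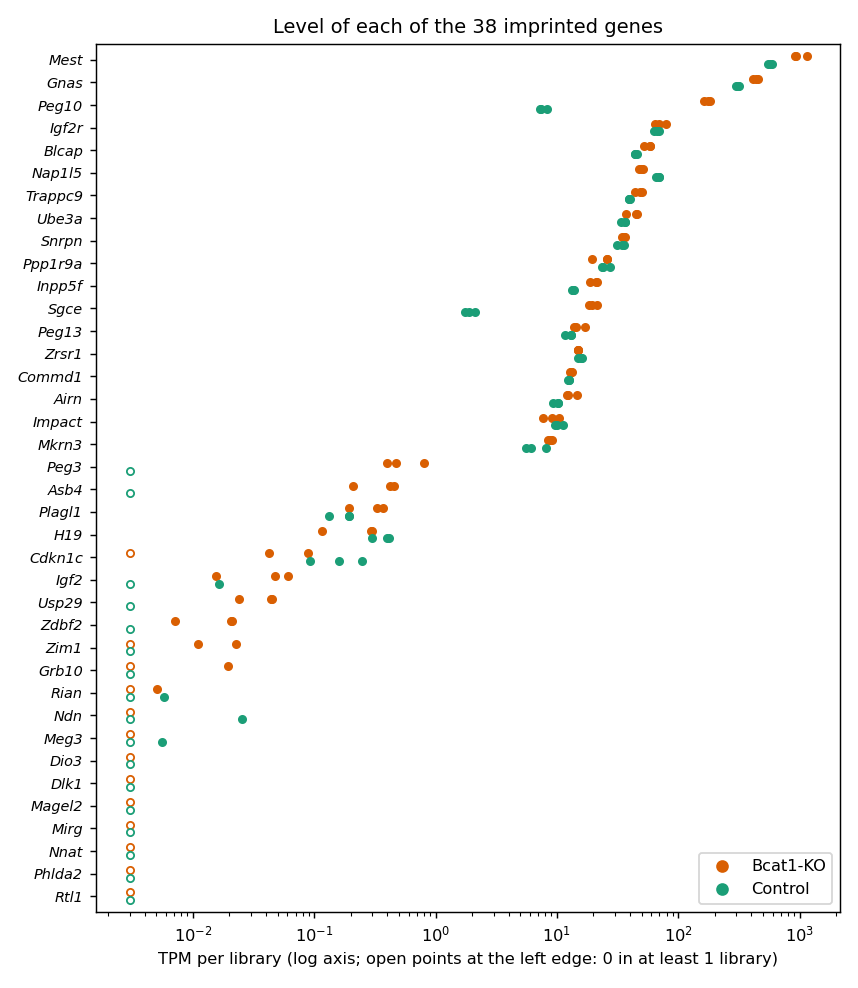
TPM of each of the 38 imprinted genes in each library (log axis), Bcat1-KO points above Control points in each row, with open points at the left edge for a gene with 0 in at least 1 library of the group. Peg10 and Sgce have the widest gaps between the groups among expressed genes, Peg3, Asb4, Usp29, Zdbf2, Zim1 and Grb10 have filled points only in Bcat1-KO, and the lowest rows are at 0 throughout.

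The Peg10 domain on chromosome 6 held the largest measured changes among abundant imprinted genes. Peg10 (chr6, 4747306 to 4760517, plus strand) is a paternally expressed gene derived from a retrotransposon that placental development needs, and Sgce (chr6, 4674350 to 4747207, minus strand) encodes epsilon-sarcoglycan, a membrane protein of the dystrophin-associated complex. They are transcribed away from each other, with starts 99 bp apart. Peg10 had 368, 325 and 371 CPM in the Bcat1-KO libraries, against 15.5, 15.6 and 17.6 CPM in Control. Every knockout library was far above every control library, with a log2 fold change of 4.45 (SE 0.09, edgeR adjusted p = 7.03e-12), or 21.9-fold. Sgce had 70.5, 62.5 and 59.3 CPM in Bcat1-KO, against 5.82, 6.35 and 7.05 CPM in Control. It was 10.01-fold higher (log2 fold change 3.32, SE 0.10, edgeR adjusted p = 1.12e-10), again with no overlap.

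Peg10 and Sgce did not keep their ratio. Peg10 TPM divided by Sgce TPM was 8.30, 8.27 and 9.97 in Bcat1-KO and 4.25, 3.90 and 3.97 in Control, so the ratio was higher in every knockout library. No test was made of this ratio.

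Ppp1r9a, which encodes the actin-binding protein neurabin and is maternally expressed in some tissues, starts 156 kb beyond Peg10. It had 88.0, 114 and 115 CPM in Bcat1-KO and 125, 109 and 111 CPM in Control. The groups overlapped and the log2 fold change of -0.12 (SE 0.10, edgeR adjusted p = 0.314) did not pass. Asb4, a maternally expressed gene for an ankyrin-repeat SOCS box protein, had 20, 19 and 9 counts in the Bcat1-KO libraries and 0 counts in each Control library. It was below the expression filter. With the Control group set to a floor of 3 counts in total and the Bcat1-KO counts taken as observed, it was at least 13.5-fold higher in Bcat1-KO. It was called higher by edgeR without the filter (adjusted p = 5.11e-10), which called 38.5% of the 24503 genes it tested. DESeq2 also called it higher (adjusted p = 2.58e-05), and called 47.8% of 17761 genes.

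The genes around the domain, a window chosen after the values were seen, differed in size of change. Of 9 tested genes within 1000 kb of the Peg10 start, Peg10 and Sgce included, 6 were higher and 0 lower. Over all tested genes 32.0% were higher and 30.3% lower. Among the 6, Pon3 and Gm44250 passed the filter only through Bcat1-KO, so their direction was set by the filter. Casd1, a sialic acid acetyltransferase gene, had a log2 fold change of 0.39 (edgeR adjusted p = 5.88e-04), and Bet1, a vesicle-transport gene, had 0.17 (adjusted p = 0.0884). On the other side, the paraoxonase gene Pon2 had 104 ± 1.39 CPM in Bcat1-KO and 52.7 ± 2.08 CPM in Control (SD, n = 3 each; log2 fold change 0.99, edgeR adjusted p = 6.14e-08). Pon3, close to the detection limit, had 0.783 ± 0.460 CPM in Bcat1-KO and 0.214 ± 0.0252 CPM in Control (log2 fold change 1.87, adjusted p = 0.00526). Gm44250, a predicted gene that was also close to that limit, had 0.646 ± 0.248 CPM in Bcat1-KO and 0.128 ± 0.0289 CPM in Control (log2 fold change 2.31, adjusted p = 7.88e-04). Over the 25 nearest tested genes outside the domain, with listed imprinted genes left out, the median log2 fold change was 0.06, with 10 higher and 8 lower. These leave out Casd1, Pon2 and Pon3, and over the 51 tested genes nearest to Peg10 with none left out the median was 0.35.

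**Figure D3:**
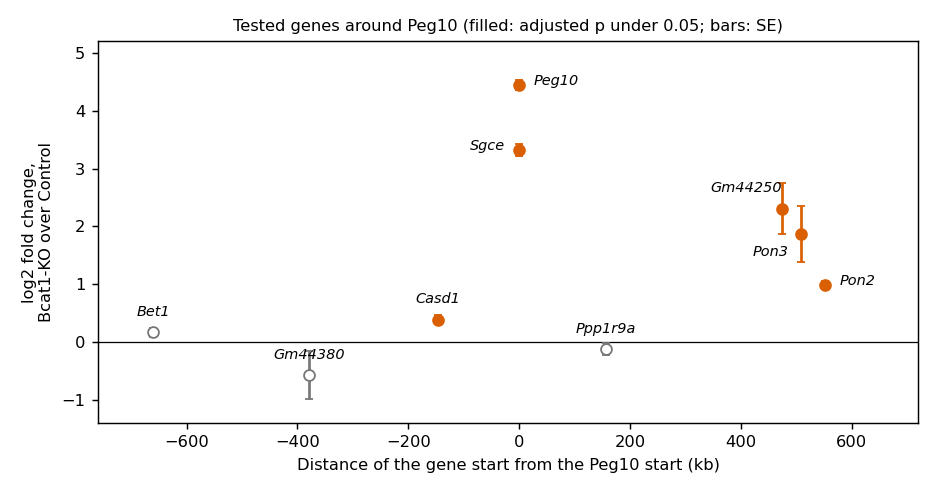
Log2 fold change (Bcat1-KO over Control, with SE) of each tested gene within 1000 kb of the Peg10 start, against the distance of its start from that of Peg10 in kb. Peg10 and Sgce rise above all neighbours, Ppp1r9a at 156 kb lies near 0, and Pon2 at 551 kb stands at 0.99.

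The Peg3 domain on proximal chromosome 7 was detected only in Bcat1-KO libraries. Peg3 (chr7, 6703892 to 6730431, minus strand) encodes a large zinc finger protein and is paternally expressed, Usp29 is a deubiquitinase-family gene on the same paternal allele, and Zim1 is a maternally expressed zinc finger gene. Peg3 had 60, 125 and 69 counts in Bcat1-KO, or 1.66, 3.25 and 1.90 CPM, and 0 counts in each Control library. With the Control group set to the floor of 3 counts and the Bcat1-KO counts taken as observed, it was at least 71.5-fold higher in Bcat1-KO. Usp29 had 9, 5 and 9 counts in Bcat1-KO and 0 in each Control library, at least 6.48-fold higher on the same terms. It was below the filter, and was called higher by edgeR without the filter (adjusted p = 5.59e-05) and by DESeq2 (adjusted p = 0.00230). Zim1 had 1, 0 and 2 counts in Bcat1-KO and 0 in Control, at or under the floor in both groups. Per length these remained low levels, with Peg3 at 0.400, 0.809 and 0.470 TPM in the knockout. The 40 nearest tested genes outside the domain had a median log2 fold change of 0.18, with 15 higher and 5 lower.

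Peg3 and Usp29 start 147 bp apart on opposite strands, and the promoter window printed here, from 250 bases before to 50 after the RefSeq start of Peg3 (GRCm38.p6), also contains the Usp29 start given in the deposited tables. It is shown because the genes that share it were both detected only in Bcat1-KO. In all promoter windows here, capitals mark the hexamer TGCCGC, or GCGGCA where it lies on the other strand, the sequence that ZFP57 is known to recognise when its CpG is methylated. This window, chr7:6730370-6730669 on the minus strand, holds 13 CpG and no such hexamer:
Peg3 promoter: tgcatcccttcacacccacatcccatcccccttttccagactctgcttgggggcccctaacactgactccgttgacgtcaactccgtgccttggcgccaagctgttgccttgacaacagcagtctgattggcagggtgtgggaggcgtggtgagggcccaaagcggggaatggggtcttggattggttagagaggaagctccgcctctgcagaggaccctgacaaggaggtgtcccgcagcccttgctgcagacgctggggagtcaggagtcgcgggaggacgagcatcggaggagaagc

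Mest, on chromosome 6 (30723547 to 30748465, plus strand), encodes a hydrolase-fold protein of the endoplasmic reticulum, is paternally expressed, and marks embryonic mesoderm. It had 1404, 1082 and 1122 CPM in Bcat1-KO, against 685, 743 and 712 CPM in Control. The groups did not overlap, with replicate 1 highest in Bcat1-KO, and Mest was 1.69-fold higher (log2 fold change 0.75, SE 0.10, edgeR adjusted p = 4.85e-05). The difference did not pass a test against a 1.5-fold threshold (edgeR adjusted p = 0.0756). Without each library in turn the log2 fold change was between 0.61 and 0.82. The 40 nearest tested genes had a median of 0.00, and Copg2, a neighbour of Mest that is maternally biased in some tissues, had 112 ± 12.6 CPM in Bcat1-KO and 111 ± 3.25 CPM in Control (SD, n = 3 each; log2 fold change 0.01, edgeR adjusted p = 0.944).

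An intron of Mest hosts the microRNA miR-335. Its mature forms are printed because the host gene was the most abundant of the 38, with the seed, bases 2 to 8, in capitals; the 5p and 3p arms have different seeds:
mmu-miR-335-5p: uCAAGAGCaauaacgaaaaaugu
mmu-miR-335-3p: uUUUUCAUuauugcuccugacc
Poly(A) libraries do not measure mature microRNAs. The annotated hairpin row Mir335 (chr6, with 5p bases at 30741314 to 30741336 on the plus strand) was near the floor, at 0.194, 0.260 and 0.138 CPM in Bcat1-KO and 0.604, 0.602 and 0.241 CPM in Control, with overlap, and was not tested.

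Nap1l5 (chr6, 58905233 to 58907076, minus strand), an intronless, paternally expressed copy of a nucleosome assembly protein gene, was the only imprinted gene called lower. It had 29.5, 27.5 and 26.5 CPM in Bcat1-KO, against 37.8, 40.6 and 40.0 CPM in Control. Every knockout library was below every control library (log2 fold change -0.50, SE 0.07, edgeR adjusted p = 8.76e-05), and without each library in turn the value was between -0.57 and -0.48. Its 40 nearest tested genes had a median of 0.09.

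The promoters of Mest and Nap1l5 are printed side by side because both genes are paternally expressed from chromosome 6, both were well above the filter, and they moved in opposite directions. Each printed window holds 17 CpG and 2 copies of the hexamer. The Mest window is chr6:30737803-30738102 on the plus strand and the Nap1l5 window is chr6:58907077-58907376 on the minus strand, both from RefSeq GRCm38.p6:
Mest promoter: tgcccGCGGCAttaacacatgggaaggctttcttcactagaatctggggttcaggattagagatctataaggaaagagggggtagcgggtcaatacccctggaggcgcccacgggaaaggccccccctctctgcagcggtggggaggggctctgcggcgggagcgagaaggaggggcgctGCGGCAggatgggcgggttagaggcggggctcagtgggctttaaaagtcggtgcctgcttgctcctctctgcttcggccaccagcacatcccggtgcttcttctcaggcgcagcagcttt
Nap1l5 promoter: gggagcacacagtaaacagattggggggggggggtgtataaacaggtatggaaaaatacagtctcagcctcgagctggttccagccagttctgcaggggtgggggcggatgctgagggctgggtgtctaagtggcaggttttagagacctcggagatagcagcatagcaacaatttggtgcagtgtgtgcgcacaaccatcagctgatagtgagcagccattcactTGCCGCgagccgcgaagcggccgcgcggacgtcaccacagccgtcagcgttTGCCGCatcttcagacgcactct
RefSeq gave 47 promoter windows for 30 of the 38 genes, all except Trappc9, Sgce, H19, Peg10, Impact, Cdkn1c, Peg13 and Rtl1. The hexamer was found on either strand in 12 of the 47 windows, 25.5%, and in 11.6% of all 32851 RefSeq promoter windows of the same length. The median number of CpG was 15 in the windows of imprinted genes and 7 in all windows. The hexamer itself contains a CpG, and the shares were not compared at equal CpG. Several windows of a gene overlap, so they are not independent, and a match describes the letters only. Among the matches, the printed Mest window and the one at chr6:30737800-30738099 are nearly the same stretch. A further Mest window, chr6:30733256-30733555, holds 8 CpG and no hexamer.

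**Figure D4:**
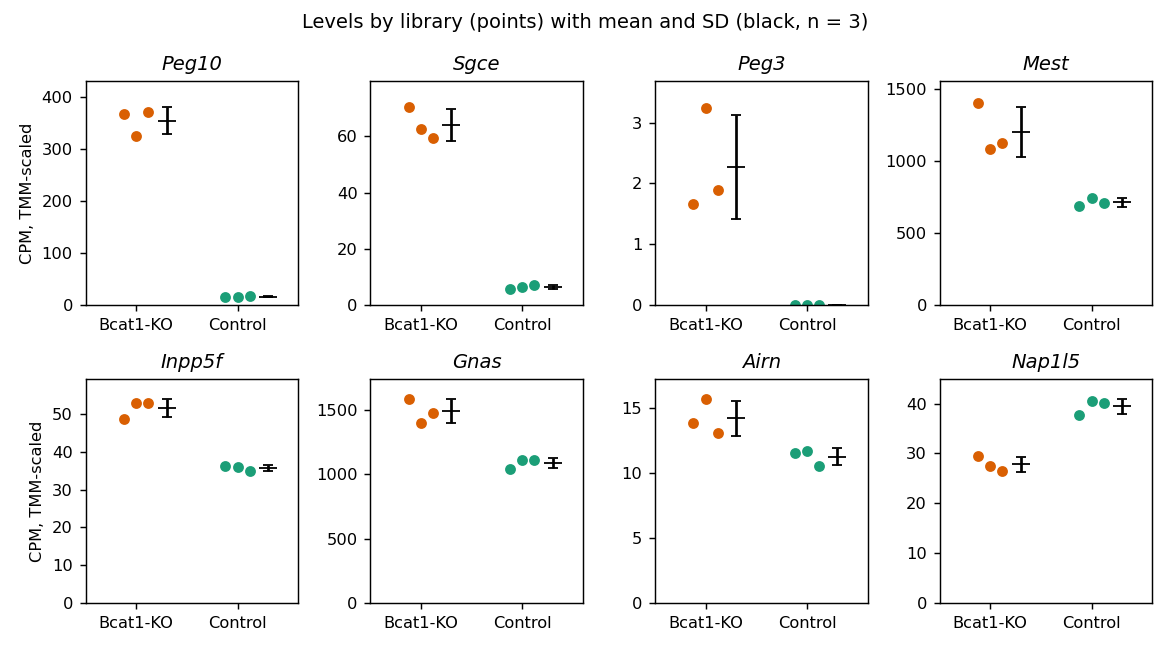
CPM in each library (points), with mean and SD (black, n = 3), of 8 imprinted genes past the threshold, Bcat1-KO left of Control in each panel and every vertical axis starting at 0. All 8 panels show groups without overlap, 7 higher in Bcat1-KO and Nap1l5 lower. The called genes Blcap, Trappc9 and Ube3a are not drawn, and the groups of Ube3a overlapped.

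Smaller increases were found in imprinted loci whose allele use depends on isoform or tissue. Gnas (chr2, 174284320 to 174346744), which encodes the stimulatory G protein alpha subunit and gives several imprinted transcripts that the counts add together, had 1589, 1403 and 1480 CPM in Bcat1-KO, against 1042, 1114 and 1109 CPM in Control. It was 1.37-fold higher without overlap (log2 fold change 0.45, SE 0.08, edgeR adjusted p = 3.89e-04), and the log2 fold change was 0.25 with unstranded counts (edgeR adjusted p = 0.0153). Of its 40 nearest tested neighbours 22 were higher and 6 lower, with a median of 0.40, and the Gnas value was 0.01 once the median of the 51 nearest tested genes was taken off. Inpp5f (chr7, 128611328 to 128696425), a phosphoinositide phosphatase gene with a paternally expressed brain isoform, had 48.9, 53.1 and 53.0 CPM in Bcat1-KO, against 36.2, 36.1 and 34.9 CPM in Control. It was higher without overlap (log2 fold change 0.53, SE 0.07, edgeR adjusted p = 2.81e-05), and its 40 nearest tested neighbours had a median of -0.04.

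Blcap and Nnat lie together on chromosome 2. Nnat, the paternally expressed neuronatin gene, sits inside Blcap on the opposite strand and overlaps it by 2445 bp. Blcap, whose isoforms differ in their parental allele use in brain, had 49.4, 53.4 and 54.0 CPM in Bcat1-KO, against 42.0, 44.8 and 42.1 CPM in Control. It was 1.22-fold higher without overlap (log2 fold change 0.28, SE 0.07, edgeR adjusted p = 0.00326), and the value was 0.14 with the local median taken off. Nnat had 0 counts on its own strand in all libraries. On the opposite strand, which is that of Blcap, its exons held 82, 96 and 92 counts in Bcat1-KO and 141, 76 and 88 counts in Control.

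Trappc9, a subunit gene of the TRAPP vesicle-tethering complex with a maternal bias in brain, contains the paternally expressed noncoding RNA gene Peg13 on chromosome 15. Trappc9 had 95, 84.9 and 97.5 CPM in Bcat1-KO, against 77.8, 79.9 and 80.9 CPM in Control. It was higher without overlap (log2 fold change 0.22, SE 0.07, edgeR adjusted p = 0.0152), but the call was lost on leaving out Bcat1-KO replicate 3 (adjusted p = 0.0812), Control replicate 1 (0.0611) or Control replicate 2 (0.0575). Peg13 had 20.4, 20.5 and 24.3 CPM in Bcat1-KO and 17.4, 19.7 and 19.5 CPM in Control. Its log2 fold change was 0.20 (SE 0.10, edgeR adjusted p = 0.0874), which passed without Bcat1-KO replicate 1 (adjusted p = 0.0385). Both genes are on the minus strand and overlap by 4725 bp, so reads from unspliced Trappc9 RNA in that stretch cannot be told apart from Peg13. Peg13 TPM over Trappc9 TPM was 0.289, 0.325 and 0.336 in Bcat1-KO and 0.301, 0.332 and 0.324 in Control, with overlap.

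At the Igf2r locus on chromosome 17 the paternal noncoding RNA and the maternal receptor gene were both expressed. Airn, the antisense RNA whose transcription silences the paternal Igf2r copy in mouse, had 13.8, 15.7 and 13.1 CPM in Bcat1-KO, against 11.5, 11.7 and 10.6 CPM in Control. It was higher without overlap (log2 fold change 0.33, SE 0.11, edgeR adjusted p = 0.0168), but the call was lost on leaving out Bcat1-KO replicate 2 (adjusted p = 0.0877) or Control replicate 3 (adjusted p = 0.0872). Igf2r, which encodes the receptor that clears IGF2 and carries lysosomal enzymes, had 190, 198 and 225 CPM in Bcat1-KO and 199, 189 and 207 CPM in Control. Its log2 fold change of 0.04 (SE 0.08, edgeR adjusted p = 0.638) did not pass, and the groups overlapped. Airn TPM over Igf2r TPM was 0.192, 0.209 and 0.153 in Bcat1-KO and 0.153, 0.163 and 0.135 in Control, with overlap. The genes overlap by 28354 bp on opposite strands, which the stranded counts separate.

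In the Snrpn-Ube3a domain, the region of Prader-Willi and Angelman syndromes in people, expression was split between genes that were well measured and genes that were silent. Snrpn, the paternally expressed gene of a splicing protein, had 24.6, 23.1 and 22.6 CPM in Bcat1-KO and 21.2, 23.7 and 24.2 CPM in Control, with overlap (log2 fold change 0.03, SE 0.08, edgeR adjusted p = 0.809). Mkrn3, a paternally expressed RING finger gene, had 6.98, 6.94 and 6.49 CPM in Bcat1-KO and 6.55, 4.97 and 4.47 CPM in Control. Its log2 fold change was 0.35 (SE 0.15, edgeR adjusted p = 0.0630), which passed without Control replicate 1 (adjusted p = 0.0129) and with limma-trend on TPM (adjusted p = 0.0365). Ndn, a paternally expressed gene of the MAGE family, had 1 count in Control replicate 2 and 0 in every other library, and its neighbour Magel2 had 0 in all.

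Ube3a, a ubiquitin ligase gene that is maternally expressed in neurons and biallelic in most other cells, had 238, 280 and 284 CPM in Bcat1-KO, against 235, 221 and 238 CPM in Control. The lowest knockout library and the highest control library were nearly equal and the groups overlapped. The log2 fold change of 0.21 (SE 0.08, edgeR adjusted p = 0.0381) passed, but it was lost in 5 of the 6 fits that each left out 1 library, with adjusted p between 0.0808 and 0.173 (all except the fit without Bcat1-KO replicate 1, where it was 0.00149). The value was 0.04 with the local median taken off. Snhg14, the paternal antisense transcript that silences Ube3a in neurons, was chosen for description after its values were seen. It had 9.44, 12.9 and 8.80 CPM in Bcat1-KO, against 20.8, 13.9 and 14.3 CPM in Control, lower without overlap (log2 fold change -0.65, SE 0.18, edgeR adjusted p = 0.00721; -0.45 and adjusted p = 0.0455 without Control replicate 1). The neuron markers summed to more in Bcat1-KO, as given above, with the neuronal nuclear marker Rbfox3 at 0.0719 CPM in Bcat1-KO and 33.1 CPM in Control and Map2 at 391 CPM in Bcat1-KO and 168 CPM in Control, and their part in the Ube3a and Snhg14 values was not tested.

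The other expressed imprinted genes did not pass the threshold. Zrsr1, a paternally expressed intronless splicing factor gene within Commd1, had 15.2, 14.9 and 14.8 CPM in Bcat1-KO and 16.2, 16.8 and 15.6 CPM in Control, lower without overlap but by little (log2 fold change -0.12, SE 0.09, edgeR adjusted p = 0.260). Commd1, a copper metabolism gene with a maternal bias in brain, differed by 0.01 (SE 0.07, adjusted p = 0.933). Impact, a paternally expressed inhibitor of the amino acid sensing kinase GCN2, had 8.20, 10.7 and 9.52 CPM in Bcat1-KO and 12.1, 10.5 and 10.8 CPM in Control. Its log2 fold change was -0.23 (SE 0.12, edgeR adjusted p = 0.122), while 31 of its 40 nearest tested neighbours were higher. It passed as lower without Bcat1-KO replicate 2 (log2 fold change -0.34, adjusted p = 0.0467). Plagl1, a paternally expressed zinc finger gene that regulates other imprinted genes in mouse, was low, at 0.471, 0.779 and 0.880 CPM in Bcat1-KO and 0.477, 0.331 and 0.482 CPM in Control. Its log2 fold change of 0.73 (SE 0.32, edgeR adjusted p = 0.0676) passed without Bcat1-KO replicate 1 (adjusted p = 0.0150).

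The listed members of several imprinted clusters known for embryonic growth control were at or near 0 in both genotypes. Other genes near Cdkn1c and Phlda2, namely Kcnq1ot1, Cd81 and Nap1l4, were expressed and are given under the other observations. The 6 genes of the Dlk1-Dio3 domain on chromosome 12, namely the paternally expressed Dlk1, Rtl1 and Dio3 and the maternally expressed noncoding RNAs Meg3, Rian and Mirg, held 3 counts in total over all libraries. Rian had 1 count in Bcat1-KO replicate 1 and 1 in Control replicate 1, Meg3 had 1 in Control replicate 1, and the other 4 had 0. With 3 counts as the limit that a count of 0 allows, levels up to 0.0794 to 0.102 CPM per library would not have been detectable, by counting error alone. The genes around this domain were measured, and 32 of the 40 nearest tested ones were lower in Bcat1-KO, 1 was higher, and their median log2 fold change was -0.50.

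H19, the maternally expressed noncoding RNA, had 8, 8 and 3 counts in Bcat1-KO and 7, 10 and 9 counts in Control, and its reciprocally imprinted neighbour Igf2, the fetal growth factor, had 1, 4 and 3 counts in Bcat1-KO and 0, 1 and 0 counts in Control. Over the groups Igf2 counts gave a ratio of 6.76 with an exact 95% interval of 0.906 to 299.8, which includes no change. Cdkn1c, the maternally expressed cell cycle inhibitor, had 0, 1 and 2 counts in Bcat1-KO and 5, 2 and 3 counts in Control, and Phlda2, a maternally expressed restrainer of placental growth in the same domain, had 0 in all. Without the filter, edgeR called neither H19 (adjusted p = 0.331) nor Igf2 (0.165) nor Cdkn1c (0.1504). Grb10, an insulin receptor adaptor gene with maternal expression outside neurons, had 2 counts in Bcat1-KO replicate 1 and 0 elsewhere. Zdbf2, a paternally expressed gene, had 3, 3 and 1 counts in Bcat1-KO and 0 in each Control library. With these few counts taken as observed, it was at least 1.97-fold higher against the floor. It was not called by edgeR without the filter (adjusted p = 0.0532). In all, 7 of the 38 genes had 0 counts in every library, and 10 of the 18 untested genes never exceeded 1 count.

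A further list of 43 genes known to be imprinted in at least some mouse tissues, drawn up from general knowledge of imprinting, showed changes in both directions. Whether these genes are imprinted in this cell line was not measured. Of the 22 tested, 10 were higher, 6 were lower, and the median log2 fold change was 0.23. Over all tested genes 32.0% were higher and 30.3% lower. Cobl and Pon3, counted among the 10, passed the filter only through Bcat1-KO, so their direction was set by the filter. No count or median was taken without them. Smoc1, a secreted calcium-binding protein gene, had 71.5 ± 7.59 CPM in Bcat1-KO and 10.7 ± 0.484 CPM in Control (SD, n = 3 each; log2 fold change 2.74, edgeR adjusted p = 2.84e-10). Begain, which encodes a synaptic scaffold-associated protein and borders the Dlk1-Dio3 domain, had 0.904 ± 0.252 CPM in Bcat1-KO and 7.02 ± 0.916 CPM in Control (log2 fold change -2.95, adjusted p = 1.57e-07). Qpct, a glutaminyl cyclase gene, was lower (log2 fold change -1.94, adjusted p = 1.45e-05), and the scaffold gene Magi2 was higher (0.98, adjusted p = 6.76e-07), as was Pon2 above. Snurf, which shares a transcript with Snrpn, is listed with 0 counts, and how reads shared by overlapping genes were assigned is not stated in the labels.

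Of 25 genes for factors that keep or read imprinting marks, 21 were tested, 5 were higher, 6 were lower, and the median log2 fold change was 0.06. The share called, 52.4%, was below the 62.3% of all tested genes. Zfp57, whose KRAB zinc finger protein binds methylated imprinting control regions and recruits TRIM28, had 15.3, 17.1 and 11.9 CPM in Bcat1-KO, against 49.0, 35.5 and 38.5 CPM in Control. Every knockout library was below every control library (log2 fold change -1.47, SE 0.14, edgeR adjusted p = 3.24e-06). Tet1 and Tet2, which encode enzymes that oxidise 5-methylcytosine, fell by 0.95 (adjusted p = 1.07e-05) and 0.74 (adjusted p = 3.33e-05) on the log2 scale, and Uhrf1 and Dnmt3b, for maintenance and de novo methylation, rose by 0.53 (adjusted p = 8.60e-05) and 0.49 (adjusted p = 0.00294). Trim28 (log2 fold change 0.12, adjusted p = 0.168), Zfp445, the other zinc finger factor of imprint upkeep (-0.22, adjusted p = 0.0680), and Ctcf (-0.02, adjusted p = 0.818) did not pass. On the TPM scale, limma-trend called 9 of the 21 higher and 3 lower, and over all genes it called 4927 higher and 3679 lower, against 4480 higher and 4255 lower with edgeR on counts.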

How the data were processed

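Stranded poly(A) libraries of 6 samples, 3 Bcat1-KO and 3 Control, were sequenced, per the labels' protocols. The submitters' processing notes name STAR 2.5.3a, featureCounts and the build mm10, and the annotation release is not stated in them. Raw counts per gene were deposited for the forward strand, the reverse strand and both, per the file headers. The reverse strand held 96.37% to 96.45% of the stranded counts and was used. The deposited TPM values, scaled by the authors over all genes of a library, served for levels per length.

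Genes were filtered with filterByExpr (14020 of 49585 kept, 0.0511% of counts removed), scaled by TMM and tested with the quasi-likelihood test of edgeR 4.0.16, Bcat1-KO against Control without covariates, with Benjamini-Hochberg adjusted p-values under 0.05 called over all tested genes. The SE of a log2 fold change was derived from its F statistic. The common biological coefficient of variation was 8.26%. In 1 library 3 counts correspond to 0.0794 to 0.102 CPM, and intervals and floors cover counting error only. A gene at 0 in all libraries of a group was given a bound, with 3 counts assumed over that group. The counts of the other group were taken as observed, so this bound leaves out their counting error.

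The imprinted genes, their clusters and alleles, and all lists were chosen with earlier results of these data known. All 38 were named, with values per library for those past the threshold at a mean of 1 CPM or more, and up to 5 such genes with the largest change from the list of further imprinted genes and the list of imprint maintenance factors. Alternatives were other scalings, no filter, DESeq2 1.42.0, limma-voom and limma-trend (limma 3.58.1) on log2(TPM + 1), unstranded counts, a replicate block, a 1.5-fold threshold, removal of the local median of 51 genes, and leaving out each library. Promoter and microRNA sequences came from RefSeq GRCm38.p6. No library looked like a copy of another (chi-square per gene between replicates 3.91 to 32.5). R 4.3.3 and Python 3.11.15 were used.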

Additional observations from a re-analysis of the deposited data

Results flagged for a closer look

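Peg10 held 45 counts on its antisense strand over the 3 Bcat1-KO libraries and 0 over the 3 Control libraries, outside the strand-matched measurement. The 45 counts are 0.115% of its counts on both strands in Bcat1-KO. Its own-strand counts were 39267 in Bcat1-KO and 1517 in Control, so an equal antisense share would leave very few counts in Control. Gnas held 468 antisense counts in Bcat1-KO and 251 in Control, or 0.283% and 0.245% of its counts on both strands, and every Bcat1-KO library was above every Control library in scaled counts. These small shares were not tested further.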

How the results depend on the processing

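The calls among the imprinted genes (10 higher, 1 lower) were equal in number under both other scalings, limma-voom, unstranded counts and the replicate block. No filter and DESeq2 each called 12 higher and 1 lower, adding Usp29 and Asb4, where Asb4 was the 1 maternally expressed gene called (1 higher). Limma-trend on TPM called 11 imprinted genes higher and 1 lower, adding Mkrn3. A test against a 1.5-fold threshold left 3 imprinted genes, 3 higher and 0 lower, all 3 of them paternal (3 higher, 0 lower), 7 of the other imprinted genes (5 higher, 2 lower), 2 of the maintenance factors (0 higher, 2 lower) and 3045 of all genes (1564 higher, 1481 lower). Limma-trend on TPM called 9 maintenance factors higher and 3 lower, and 4927 of all genes higher and 3679 lower. Leaving out each library in turn gave 10 to 13 imprinted genes called (8 to 12 higher, 1 to 2 lower), 5 to 8 paternal (4 to 7 higher, 1 to 2 lower), 0 to 1 maternal (0 to 1 higher, Asb4), 15 to 17 other imprinted genes, 9 to 12 maintenance factors and 7734 to 9330 of all genes. Among the 38 imprinted genes, the sign turned only for those that never passed. Over the fits that each left out 1 library, Igf2r was between -0.044 (without Bcat1-KO replicate 3) and 0.076 (without Bcat1-KO replicate 1), with -0.001 without Control replicate 2, and it was -0.06 with the local median taken off. Over the same fits Snrpn was between -0.044 (without Control replicate 1) and 0.051 (without Control replicate 3), with -0.031 without Bcat1-KO replicate 1, and it was -0.10 with the local median taken off. Commd1 was between -0.021 (without Bcat1-KO replicate 1) and 0.015 (without Bcat1-KO replicate 3) on leaving out libraries. It was -0.007 with size factors of DESeq2, -0.003 with upper quartile scaling and with DESeq2, -0.001 without the filter and -0.008 with unstranded counts. With the local median taken off, Commd1 was at -0.18. The causes were not tested. Deviations of same-numbered libraries correlated at -0.05, -0.07 and 0.16. With 3 libraries per group these values cannot show whether replicate numbers pair the samples. A replicate block called 8662 genes. Removal of the local median gives values without a test, so it has no counts. Depth limits the 18 untested genes, most of which had under 3 counts per library.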

Other observations

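The remaining called genes among the 43 further imprinted genes, given here to complete that list, included neighbours of Cdkn1c and Phlda2 on distal chromosome 7. Kcnq1ot1, the paternal noncoding RNA that silences this domain in mouse, had 3.05, 3.64 and 3.60 CPM in Bcat1-KO and 5.63, 4.76 and 5.09 CPM in Control (log2 fold change -0.59, SE 0.15, edgeR adjusted p = 0.00398). Cd81, a tetraspanin gene, had 287, 246 and 257 CPM in Bcat1-KO and 169, 175 and 178 CPM in Control (log2 fold change 0.60, SE 0.07, edgeR adjusted p = 2.34e-05), and Nap1l4, a nucleosome assembly protein gene, was also higher (0.38, edgeR adjusted p = 0.00109). Elsewhere Atp10a (0.64, adjusted p = 2.38e-04) and Peg12 (0.42, adjusted p = 5.74e-04), both near the Snrpn-Ube3a domain, were higher, while H13 (-0.36, adjusted p = 0.00254), Gab1 (-0.38, adjusted p = 6.37e-04) and Jade1 (-0.19, adjusted p = 0.0245) were lower (all edgeR). With the local median taken off, H13 was at -0.43, Gab1 at -0.06 and Jade1 at 0.06, and Atp10a and Peg12 were at 0.47 and 0.30. Cobl, at 0.360 CPM in Bcat1-KO and 0.0201 CPM in Control, was called higher on 40 counts in Bcat1-KO and 2 in Control, a ratio of 16.9 (exact 95% interval 4.38 to 144).

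Among the maintenance factors, Dnmt1 (log2 fold change 0.39, edgeR adjusted p = 4.88e-04), Dnmt3a (0.33, adjusted p = 0.00341) and Ezh2, the Polycomb methyltransferase gene (0.34, adjusted p = 4.84e-04), were the other higher genes. Tet3 (-0.28, adjusted p = 0.0134), Yy1 (-0.21, adjusted p = 0.0162) and Setdb1 (-0.19, adjusted p = 0.0480, with groups that overlapped) were lower, beside Zfp57, Tet1 and Tet2. With the local median taken off, Yy1 was at 0.24 and Setdb1 at 0.06, above their neighbours. On that scale Tet3 (-0.17), Zfp57 (-1.32), Tet1 (-0.65) and Tet2 (-0.84) stayed below theirs. The Setdb1 call was lost in 4 of the 6 fits that each left out 1 library (adjusted p up to 0.167 without Control replicate 1), the Yy1 call without Control replicate 2 (0.0544), and the Jade1 call without Bcat1-KO replicate 2 (0.0530), Control replicate 1 (0.0708) or Control replicate 3 (0.0617).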
